A study of Mus musculus with 6 samples.

Results

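The insulin-like growth factor (IGF) system was read here through 10 genes: the ligand genes Igf1 and Igf2, the receptor genes Igf1r and Igf2r, and the binding protein genes Igfbp2 to Igfbp7. The members are a list of gene names, and each was measured by the probe set that the platform annotation pairs with that single symbol; all 10 had exactly 1 such probe set, among 19938 genes tested in all. The samples were bone marrow stromal cells, plastic-adherent cells of the marrow that give rise to osteoblasts and adipocytes. They came from 6-month-old C57BL/6 mice that were wild type (WT, 3 arrays) or carried the 188 knockout, a knockout of the microRNA miR-188 (KO188, 3 arrays). Both groups were grown as cultures in osteogenic medium with 10% fetal calf serum, 0.05 mM ascorbate-2-phosphate, 10 mM beta-glycerophosphate and the synthetic glucocorticoid dexamethasone at 100 nM. The sources used here do not give the days in this medium, the design of the knockout allele or whether cells of several mice were pooled. Every sample was hybridised to its own Affymetrix array, and values are log2 probe set levels as deposited.

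IGF1 and IGF2 are small secreted hormones that act through the receptor tyrosine kinase encoded by Igf1r, which signals through insulin receptor substrates to PI3K and AKT and to the RAS and MAP kinases. The receptor encoded by Igf2r binds IGF2 without such signalling and takes it to the lysosome, and it also sorts lysosomal enzymes that carry mannose 6-phosphate. The IGF binding proteins hold the ligands outside the cell and can block, store or deliver them, and proteases such as PAPP-A release the ligand by cutting them. Bone cells make both ligands and most of the binding proteins, bone matrix stores IGFs, and glucocorticoids are known to lower Igf1 transcription in osteoblast cultures.

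The microRNA gene that the knockout label names gives 2 mature products, printed here 5′ to 3′. Whether the KO188 samples lack both products was not measured here. The sequences are from RefSeq (GRCm38.p6), and the seed, bases 2 to 8, is in capitals.
mmu-miR-188-5p: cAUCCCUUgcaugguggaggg
mmu-miR-188-3p: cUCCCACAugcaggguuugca
The array's Mir188 probe set stood at 7.15, 7.13 and 7.16 on the WT arrays and at 7.03, 7.13 and 7.09 on the KO188 arrays, a change of -0.06 (SE 0.034, limma adjusted p = 0.24). The groups overlapped. The sources used here do not say which part of the locus this probe set reads, so it checks nothing about the genotype labels.

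The promoters of the 6 members that differed between the groups are printed next, 1 start per gene, to show the sequence around the starts of the genes that moved. For Igf2, which has 4 starts in the table, the one with a match to the interferon element is shown, and which Igf2 start or transcript the probe set reads is unknown here. They come from the RefSeq promoter table (GRCm38.p6), which holds 14 promoters for the 10 members, each of 300 bases running from 250 before the start to 50 after it, and letters that match a searched motif are in capitals.
Igf1, chr10:87860861-87861160, plus strand: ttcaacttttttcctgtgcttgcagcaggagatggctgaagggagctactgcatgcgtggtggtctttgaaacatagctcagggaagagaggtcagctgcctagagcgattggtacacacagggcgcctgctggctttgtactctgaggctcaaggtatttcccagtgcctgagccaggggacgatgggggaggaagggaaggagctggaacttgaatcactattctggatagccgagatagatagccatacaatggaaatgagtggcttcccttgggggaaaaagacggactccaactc
Igf2, the third start in the table, chr7:142658755-142659054, minus strand: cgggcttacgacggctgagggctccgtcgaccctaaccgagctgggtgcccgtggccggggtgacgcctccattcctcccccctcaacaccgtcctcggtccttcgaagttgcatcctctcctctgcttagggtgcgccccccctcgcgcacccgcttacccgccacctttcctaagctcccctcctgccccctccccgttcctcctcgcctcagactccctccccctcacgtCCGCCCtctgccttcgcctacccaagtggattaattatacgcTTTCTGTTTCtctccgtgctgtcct
Igf1r, chr7:67952007-67952306, plus strand: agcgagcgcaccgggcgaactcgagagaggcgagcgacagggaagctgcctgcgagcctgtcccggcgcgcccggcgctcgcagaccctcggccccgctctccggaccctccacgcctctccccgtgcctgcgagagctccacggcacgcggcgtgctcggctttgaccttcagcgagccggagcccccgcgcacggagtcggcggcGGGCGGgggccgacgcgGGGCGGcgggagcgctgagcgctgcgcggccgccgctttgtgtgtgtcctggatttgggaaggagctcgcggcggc
Igfbp5, chr1:72874816-72875115, minus strand: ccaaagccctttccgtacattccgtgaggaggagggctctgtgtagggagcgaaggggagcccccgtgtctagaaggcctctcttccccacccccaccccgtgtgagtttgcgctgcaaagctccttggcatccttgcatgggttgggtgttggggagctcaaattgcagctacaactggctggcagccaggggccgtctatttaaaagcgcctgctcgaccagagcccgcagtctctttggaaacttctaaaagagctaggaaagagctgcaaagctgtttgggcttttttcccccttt
Igfbp3, chr11:7213874-7214173, minus strand: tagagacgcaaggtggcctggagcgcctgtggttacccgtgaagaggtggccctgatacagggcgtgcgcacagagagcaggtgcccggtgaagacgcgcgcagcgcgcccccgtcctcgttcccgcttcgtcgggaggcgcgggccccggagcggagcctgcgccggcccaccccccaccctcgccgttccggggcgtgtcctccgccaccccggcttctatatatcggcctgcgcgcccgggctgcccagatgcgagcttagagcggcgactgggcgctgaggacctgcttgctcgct
Igfbp6, chr15:102143936-102144235, plus strand: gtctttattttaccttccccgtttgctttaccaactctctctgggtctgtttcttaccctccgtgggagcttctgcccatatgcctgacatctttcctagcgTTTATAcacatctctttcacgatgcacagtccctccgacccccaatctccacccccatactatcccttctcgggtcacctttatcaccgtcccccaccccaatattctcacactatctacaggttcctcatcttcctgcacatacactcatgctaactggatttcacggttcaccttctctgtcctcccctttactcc
On both strands, the searches were for the interferon-stimulated response element core (GAAA, any 2 bases, GAAA), a STAT element (TTCNNNGAA), the glucocorticoid receptor hexamer (AGAACA), the TATA box (TATAAA) and the GC box (GGGCGG). The interferon element core occurred in 1 of the 14 member promoters, at the third Igf2 start, where it begins 25 bases after the start on the reverse strand; 3.44% of all 32851 promoters in the table hold it. The STAT element occurred in 0 of 14, beside 8.3% of all promoters. The glucocorticoid receptor hexamer was found at the first Igf2 start and the first Igfbp2 start, beside 19% of all promoters. The TATA box was found in Igfbp4, 28 bases before the start, and in Igfbp6 on the reverse strand 148 bases before it, beside 13.6% of all promoters. The GC box was found in 6 of the 14, those of Igf1r, Igf2r, Igfbp7, Igfbp2 and 2 of the Igf2 starts, beside 35.7% of all promoters. Igf1, Igfbp3 and Igfbp5 held none of these letters in the window. These matches describe letters only.

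Over the whole table, limma called 5937 of 19938 genes at an adjusted p of 0.05, which is 29.8% (13.3% higher and 16.5% lower in KO188). Centring the arrays on their medians took the share of higher genes among the calls from 44.5% to 30.8%. Detection by this test was more frequent among brighter genes: of the 9969 genes at or above the median 6-array mean, 52% were called. Array medians ran from 7.43 to 7.50, arrays of the same group correlated across genes at 0.9988 to 0.9993 while between the groups r was 0.9909 to 0.9912; these are correlations across genes, which are not independent replicates. The labels name the arrays biological replicates without saying whether each is its own mouse or culture, so p-values measure only the spread between these samples, and genotype cannot be told apart from any culture difference shared by the KO188 samples. In bulk RNA such as this, a change in the number of cells of a type and a change in RNA per cell cannot be told apart either.

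Of the 10 IGF system genes, 4 rose in KO188 (Igf1, Igf2, Igf1r and Igfbp5), 2 fell (Igfbp3 and Igfbp6) and 4 did not pass the test (Igf2r, Igfbp2, Igfbp4 and Igfbp7). Both ligands and the signalling receptor were thus higher, whereas the binding proteins were split, with 1 higher, 2 lower and 3 not past the threshold. The arrays of the groups did not overlap for the 6 called members, beside 41.5% of all tested genes. The called share was 6 of 10 beside 29.8% of all tested genes; among the 8 members at or above the median 6-array mean it was 5 of 8 (62.5%) beside 52% of all such genes, so the number of calls alone does not set these genes apart. The size of the changes had a median of 0.27 on the log2 scale, in either direction, against 0.08 over all tested genes and 0.12 over the genes at or above the median level. All 10 members lay above 6.72, the level below which 95% of 1190 chemosensory receptor genes (olfactory and vomeronasal) lay, used here as a rough mark of how bright an unused gene looks (the receptor guide).

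**Figure D1:**
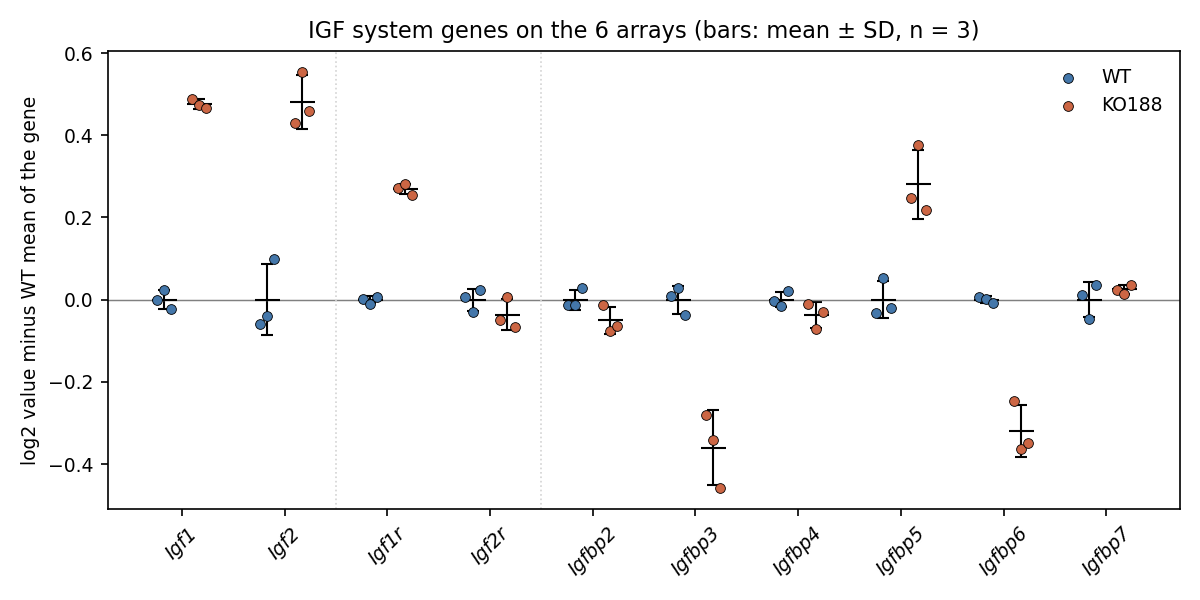
Log2 value of each IGF system gene on each array minus the WT mean of that gene (y axis), for 3 WT and 3 KO188 arrays; bars are the mean and SD, and dotted lines part ligands, receptors and binding proteins. All KO188 points lie above all WT points for Igf1, Igf2, Igf1r and Igfbp5 and below them for Igfbp3 and Igfbp6, and the groups overlap for the other 4 genes.

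Igf1, which encodes the ligand that mediates much of growth hormone action and is made locally by bone cells, stood at 9.11, 9.14 and 9.09 on the WT arrays and at 9.60, 9.59 and 9.58 on the KO188 arrays. All KO188 arrays were above all WT arrays, and the gap between the groups was far wider than the range within either of them (0.045 in WT and 0.024 in KO188). The change was 0.48 on the log2 scale (SE 0.025, limma adjusted p = 3.3e-05), or 1.39-fold (95% interval 1.33 to 1.45). By the size of its change, in either direction, Igf1 lay at the 95.5th percentile of all tested genes and Igf2 at the 95.6th.

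Igf2, the gene of the second ligand, which is imprinted and best known from fetal growth, stood at 7.33, 7.35 and 7.49 in WT and at 7.82, 7.94 and 7.85 in KO188. The third WT array was the highest of its group and KO188 replicate 1 the lowest of the other, yet the groups did not overlap. The change was 0.48 (SE 0.054, limma adjusted p = 8.2e-04), or a ratio of 1.4 (95% interval 1.28 to 1.53). Its spread within groups, 0.086 (SD, n = 3) in WT and 0.065 in KO188, was wider than that of Igf1 (0.022 and 0.012), so the near-equal changes of the ligands were not equally precise. Ins2, the insulin gene that is the next protein-coding gene to Igf2 in the RefSeq gene order, changed by 0.01 (SE 0.052, adjusted p = 0.88) and did not pass.

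Igf1r, the gene of the signalling receptor, stood at 10.54, 10.53 and 10.55 in WT and at 10.81, 10.82 and 10.79 in KO188. The arrays of a group spanned 0.017 in WT and 0.025 in KO188, and the groups were apart. The change was 0.27 (SE 0.024, limma adjusted p = 2.9e-04), or 1.21-fold (95% interval 1.16 to 1.25). Igf2r, the clearance and sorting receptor gene, stood at 10.74, 10.70 and 10.75 in WT and at 10.68, 10.74 and 10.67 in KO188. These groups overlapped, and the change of -0.04 (SE 0.031, limma adjusted p = 0.45) did not pass, with a 95% interval from -0.11 to 0.04. Insr, the insulin receptor gene, whose protein can form hybrid receptors with that of Igf1r, was 9.88 ± 0.049 (SD, n = 3) in WT and 9.84 ± 0.027 in KO188 and did not pass (-0.05, SE 0.034, adjusted p = 0.37).

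Igfbp5, the gene of a binding protein that adheres to bone matrix, was the binding protein gene that rose. It stood at 7.98, 8.06 and 7.99 in WT and at 8.26, 8.39 and 8.23 in KO188, so the groups did not overlap, and KO188 replicate 2 was the highest. The change was 0.28 (SE 0.049, limma adjusted p = 0.0054), or 1.21-fold (95% interval 1.12 to 1.32). Igfbp2, its direct neighbour in the RefSeq gene order, stood at 7.64, 7.64 and 7.68 in WT and at 7.64, 7.57 and 7.59 in KO188. These values overlapped, and the change of -0.05 (SE 0.029, limma adjusted p = 0.26) did not pass, although it did with quantile normalization (-0.10, adjusted p = 0.046; 0.046 to 0.47 over 13 alternatives). On the deposited values the 95% interval of the Igfbp2 change, -0.12 to 0.02, and that of Igfbp5, 0.16 to 0.40, did not overlap, though the difference between these genes was not itself tested.

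Igfbp3, the gene of the main carrier of IGFs in blood, had the largest fall among the members. It stood at 8.66, 8.68 and 8.62 in WT and at 8.37, 8.31 and 8.19 in KO188. The KO188 arrays were all lower, and they were more widely spread (SD 0.091, n = 3) than the WT arrays (SD 0.034). The change was -0.36 (SE 0.050, limma adjusted p = 0.0020), so that Igfbp3 was 1.28-fold lower, at 77.9% of the WT level (95% interval of the ratio 0.717 to 0.846). Its neighbour Igfbp1, which is known mainly as a liver gene, was close to the receptor guide (6.79 in WT and 6.76 in KO188) and did not pass (-0.03, SE 0.037, adjusted p = 0.58).

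Igfbp6, the gene of the binding protein that prefers IGF2 over IGF1, stood at 9.87, 9.86 and 9.85 in WT and at 9.62, 9.50 and 9.52 in KO188. WT arrays were nearly alike, and all KO188 arrays were lower. The change was -0.32 (SE 0.037, limma adjusted p = 9.2e-04), so that Igfbp6 was 1.25-fold lower, at 80.1% of the WT level. Igfbp4, the gene of an inhibitory binding protein and a substrate of PAPP-A, stood at 9.89, 9.88 and 9.91 in WT and at 9.88, 9.82 and 9.86 in KO188; the groups overlapped and the change of -0.04 (SE 0.028, limma adjusted p = 0.39; 95% interval -0.10 to 0.03) did not pass. Igfbp7, whose protein binds IGFs weakly and is also found around blood vessels, stood at 13.54, 13.48 and 13.56 in WT and at 13.55, 13.54 and 13.56 in KO188. Its change of 0.03 (SE 0.030, limma adjusted p = 0.60; 95% interval -0.05 to 0.10) did not pass, and its sign turned with median centring (-0.02, adjusted p = 0.72; 0.16 to 0.98 over 14 alternatives).

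**Figure D2:**
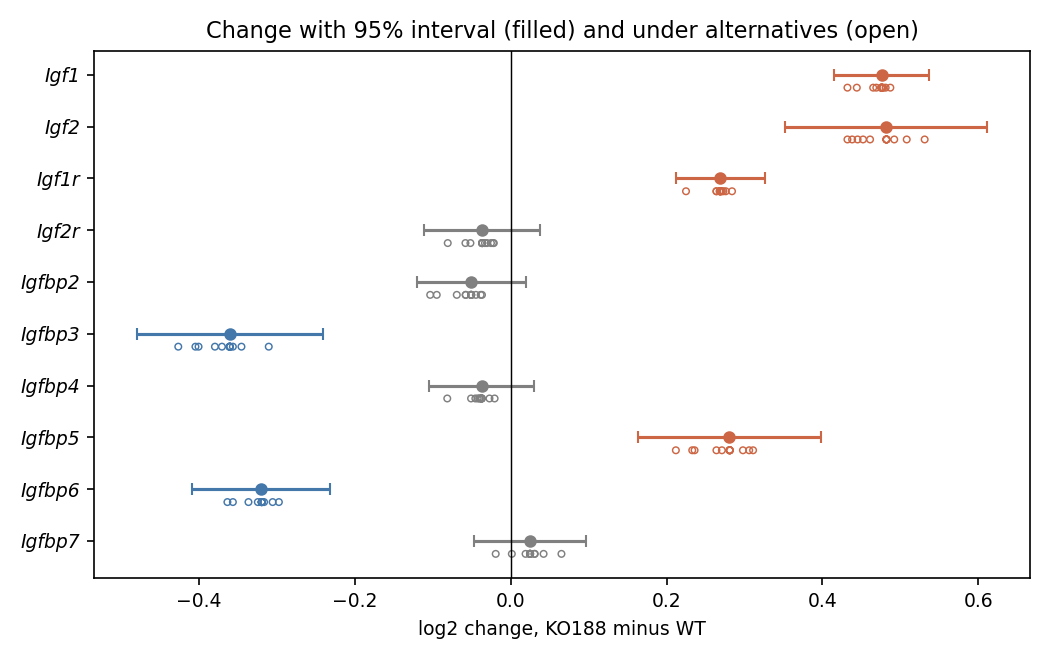
Log2 change, KO188 minus WT, of each IGF system gene (x axis) with the 95% interval of the limma fit (filled points and bars) and the value under each of up to 14 other processing settings (open points); orange marks genes that rose, blue genes that fell and grey genes that did not pass. Every open point of the 6 called genes lies on the same side of 0 as the filled point, from 0.43 to 0.49 for Igf1 and from -0.43 to -0.31 for Igfbp3.

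Genes whose array profile lay nearest to the member with the largest rise and to that with the largest fall were found by the root mean square (RMS) difference of mean-centred log2 values over the 6 arrays. For Igf2 these were Plscr4 (RMS difference 0.027), a phospholipid scramblase gene, Svep1 (0.029), which encodes a large matrix protein, and Khnyn (0.029), whose protein works with the antiviral factor ZAP. They changed by 0.49, 0.50 and 0.50. For Igfbp3 they were the mitochondrial carrier gene Slc25a40 (0.021), the chromatin remodeller gene Hells (0.026) and the transcription factor gene Maff (0.026), with changes of -0.33, -0.36 and -0.34. With 2 groups of 3 arrays, this likeness mostly picks genes with the same change between groups.

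Beyond the members, 101 genes in 9 lists by role were read, of which 88 were measured; 25 rose, 20 fell and 43 did not pass. That is 51.1% called, beside 29.8% of all tested genes, and 61.2% of the 67 listed genes at or above the median level, beside 52% of all such genes. The median change of the 88 was 0.00, as it was (-0.01) over all tested genes.

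The growth hormone axis moved in 1 direction wherever it passed: 5 of its 6 genes rose and 0 fell, with a list median of 0.29, and the 5 stayed higher under each of the 14 alternatives. Its called share, 83.3%, equalled that of the RAS and MAP kinase list. Beside it stand 29.8% of all tested genes and 52% of those at or above the median level. Growth hormone is known to drive Igf1 transcription through JAK2 and STAT5, and JAK2 also serves other cytokine receptors, the interferon-gamma receptor among them. Ghr, the growth hormone receptor gene, stood at 11.66, 11.63 and 11.68 in WT and at 12.06, 12.08 and 12.06 in KO188. These groups were well apart, and the change was 0.41 (SE 0.026, limma adjusted p = 7.5e-05). Jak2, the kinase gene, stood at 10.23, 10.26 and 10.19 in WT and at 10.99, 10.99 and 11.00 in KO188, a change of 0.77 (SE 0.028, limma adjusted p = 5.8e-06). Socs2, a feedback inhibitor gene induced by STAT5, rose from 10.78 ± 0.019 (SD, n = 3) to 11.18 ± 0.060, a change of 0.40 (SE 0.037, adjusted p = 3.2e-04). Stat5b rose by 0.18 (SE 0.028, adjusted p = 0.0036). Stat5a rose by 0.14 (SE 0.033, adjusted p = 0.020), a call that ended when arrays were centred on their medians (0.09, adjusted p = 0.088), with quantile normalization (0.10, adjusted p = 0.11) and without any 1 of the 3 WT arrays (adjusted p = 0.052 to 0.073). Cish, another STAT5-induced inhibitor gene, did not pass (0.01, SE 0.031, adjusted p = 0.83), and its value ran from -0.05 to 0.03 over 13 alternatives.

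**Figure D3:**
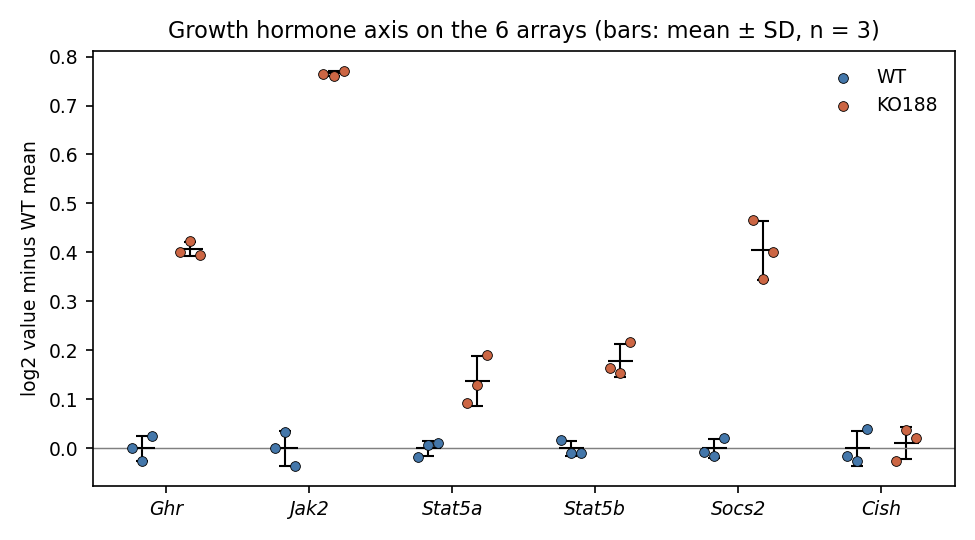
Log2 value of each growth hormone axis gene on each array minus the WT mean of that gene (y axis), for 3 WT and 3 KO188 arrays; bars are the mean and SD. KO188 points lie above WT points for Ghr, Jak2, Stat5a, Stat5b and Socs2, with Jak2 highest at a change of 0.77, and the groups overlap for Cish.

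Among 16 genes of proteases that cut IGF binding proteins and of their inhibitors, 4 rose, 4 fell and 8 did not pass. The called share was 50%, beside 29.8% of all tested genes and 52% of those at or above the median level. Pappa, which encodes the protease PAPP-A that cuts the products of Igfbp4 and Igfbp5, stood at 9.90, 9.89 and 9.86 in WT and at 10.51, 10.59 and 10.52 in KO188. The groups were apart, and Pappa rose by 0.65 (SE 0.031, limma adjusted p = 2.0e-05), or 1.57-fold. Adam12, the gene of a membrane protease that cuts the products of Igfbp3 and Igfbp5, stood at 9.11, 9.08 and 9.07 in WT and at 8.33, 8.26 and 8.30 in KO188, and it fell by 0.79 (SE 0.029, limma adjusted p = 6.8e-06). Mmp14, a membrane-bound matrix protease gene, rose by 0.35 (SE 0.029, adjusted p = 2.4e-04).

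The close relative and the inhibitors of PAPP-A were picked for mention after their values were seen. Pappa2 rose on the probe set used (0.21, SE 0.042, limma adjusted p = 0.010) at levels near the receptor guide, and its 2 other probe sets, both under the guide, changed by 0.45 and 0.71 among all probe sets; with the mean of its probe sets the change was 0.46 (adjusted p = 4.4e-04). Stc1, which encodes a stanniocalcin that inhibits PAPP-A, rose by 0.21 (SE 0.050, adjusted p = 0.020), a call lost with quantile normalization (0.15, adjusted p = 0.061), without WT replicate 1 or 3 (adjusted p = 0.075 for each) and without KO188 replicate 1 (adjusted p = 0.058). Stc2, the gene of the other stanniocalcin, did not pass (-0.04, SE 0.028, adjusted p = 0.33), although it did with quantile normalization (-0.09, adjusted p = 0.048).

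Of 15 measured genes of receptor adaptors and brakes, 2 rose, 3 fell and 10 did not pass. With 33.3% called, this list was near the 29.8% of all tested genes and under the 52% of those at or above the median level. Irs1, the gene of the insulin receptor substrate that carries IGF signals in osteoblasts, stood at 10.50, 10.50 and 10.54 in WT and at 10.95, 11.00 and 10.98 in KO188. It rose by 0.46 (SE 0.027, limma adjusted p = 5.1e-05), or 1.38-fold; the mean with its second, dim probe set, which changed by 0.15, gave 0.30 (adjusted p = 0.0012). Irs2, its homologue, was 9.01 in WT and 8.90 in KO188 and did not pass (-0.11, SE 0.052, adjusted p = 0.17). With quantile normalization Irs2 did pass (-0.16, adjusted p = 0.045). The adaptor gene Gab1 rose by 0.33 (SE 0.047, adjusted p = 0.0024). The ubiquitin ligase genes Nedd4 (-0.15, SE 0.024, adjusted p = 0.0040) and Cbl (-0.11, adjusted p = 0.027) and the phosphatase gene Ptpn11 (-0.13, adjusted p = 0.028) fell. The Cbl call ended without any 1 of the WT arrays or KO188 replicate 1 or 3 (adjusted p = 0.053 to 0.090). The Ptpn11 call ended with quantile normalization (0.073) and when replicate 1 or 3 of either group was omitted (adjusted p = 0.067 to 0.095). Nedd4 fell by 0.10 with quantile normalization.

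In the PI3K, AKT and FOXO list 5 of 19 measured genes rose, 6 fell and 8 did not pass. That is 57.9% called, beside 29.8% of all tested genes and 52% of those at or above the median level. Akt1 and Akt2 were picked for mention after their values were seen. Akt1 fell by 0.21 (SE 0.027, limma adjusted p = 0.0015), and Akt2 did not pass (-0.03, SE 0.025, adjusted p = 0.47). The regulatory subunit genes Pik3r1 (0.44, SE 0.025, limma adjusted p = 4.2e-05) and Pik3r3 (0.64, SE 0.045, adjusted p = 1.1e-04) rose, whereas the third regulatory subunit gene of the list, Pik3r2, fell by 0.13 (SE 0.032, adjusted p = 0.020), which no longer passed without KO188 replicate 2 (adjusted p = 0.060). The catalytic subunit gene Pik3cb stood at 10.56, 10.50 and 10.54 in WT and at 9.98, 9.98 and 9.90 in KO188, and it fell by 0.58 (SE 0.033, limma adjusted p = 4.6e-05). The other listed catalytic subunit genes, Pik3ca (0.0007, SE 0.031, adjusted p = 0.99) and Pik3cd (-0.17, SE 0.071, adjusted p = 0.13), did not pass. Pik3cd did in 2 of 13 alternatives. Thus the subunits of this kinase did not move together. Of 6 measured genes of the RAS and MAP kinase list, 3 rose, Map2k1 (0.19), Elk1 (0.19) and Araf (0.16), 2 fell, Nras (-0.22) and Map2k2 (-0.16), and Braf did not pass. Map2k1 and Map2k2 encode the paired kinases that activate the same MAP kinases, and they moved in opposite directions (limma adjusted p = 0.0014 and 0.0083).

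In the mannose 6-phosphate sorting list, which holds partners of the Igf2r product in lysosomal transport, 3 of 6 measured genes rose, 1 fell and 2 did not pass. Its called share was 66.7%, beside 29.8% of all tested genes and 52% of those at or above the median level. Gnptg, a subunit gene of the enzyme that builds the sorting tag, rose by 0.21 (SE 0.027, limma adjusted p = 0.0016), and Gga1, an adaptor gene for the sorting receptors, fell by 0.15 (SE 0.023, adjusted p = 0.0034). Nagpa, which encodes the enzyme that uncovers the tag, rose by 0.19 (adjusted p = 0.027), and Gga3 rose by 0.16 (adjusted p = 0.017). Both of these calls were lost with median centring (adjusted p = 0.067 and 0.050) and with some arrays left out, for Nagpa when WT replicate 1 or 2, or KO188 replicate 1 or 3, was omitted (adjusted p up to 0.096) and for Gga3 without KO188 replicate 2 or 3 (0.055 and 0.059).

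The imprinted gene network, a set of co-expressed imprinted genes around Igf2, had 3 of 11 measured genes higher, 3 lower and 5 not past the test. This was 54.5% called, beside 29.8% of all tested genes and 52% of those at or above the median level. Plagl1, which encodes a transcription factor known to act on Igf2, stood at 7.97, 8.04 and 8.11 in WT and at 9.12, 9.17 and 9.02 in KO188. It rose by 1.06 (SE 0.052, limma adjusted p = 2.2e-05), or 2.09-fold, more than any of the 10 IGF system genes. Mest, a hydrolase-like gene, rose by 0.77 (SE 0.072, adjusted p = 3.6e-04), with a WT level of 6.47 under the receptor guide, so that its size is inexact. Dcn, the gene of the matrix proteoglycan decorin, stood at 8.68, 8.79 and 8.89 in WT and at 7.66, 7.40 and 7.64 in KO188, a fall of 2.32-fold (log2 change -1.22, SE 0.084, limma adjusted p = 1.0e-04). Airn, the non-coding antisense gene that starts within Igf2r, was picked for mention after its values were seen. It rose by 0.36 (SE 0.043, adjusted p = 0.0011), from 10.40 ± 0.071 to 10.76 ± 0.039 (SD, n = 3 each), while Igf2r did not pass; the genes overlap, and the sources used here do not say how the probe sets part them by strand.

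The remaining lists held few calls. Their called shares were 14.3% for insulin and IGF relatives and 0% for IGF2 mRNA-binding proteins, beside 29.8% of all tested genes. Among 7 measured insulin and IGF relatives only Kazald1, the gene of a secreted protein with an IGF binding protein domain, passed, and it fell by 0.31 (SE 0.057, limma adjusted p = 0.0065) to the receptor guide (7.04 in WT and 6.73 in KO188). Of the 2 measured genes of IGF2 mRNA-binding proteins, Igf2bp1 and Igf2bp3, 0 passed limma's test and 0 had an unadjusted p under 0.05.

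**Figure D4:**
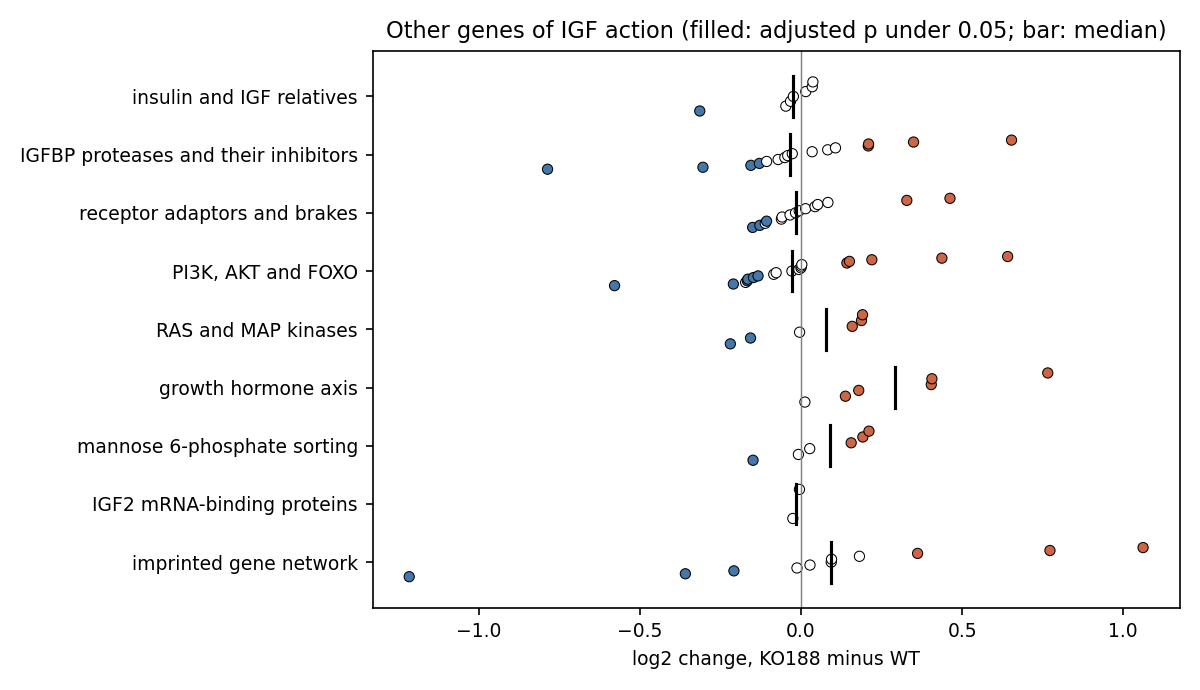
Log2 change, KO188 minus WT (x axis), of every measured gene in the 9 lists of IGF action; filled points passed the test, orange upward and blue downward, open points did not, and bars are list medians. The growth hormone axis has its median at 0.29 with Cish nearest to 0, while the lists of proteases, adaptors and PI3K genes reach to both sides with medians between -0.03 and -0.02.

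Markers were read beside these values to see which cells the cultures held. Of 11 measured marrow stromal markers, 6 rose and 2 fell, a called share of 72.7% beside 29.8% of all tested genes. The rises reached 0.87 (Pdgfra), and the falls were those of Nt5e (-0.85) and Cd44 (-0.33). Genes such as Col1a1 (12.90 in WT, 13.11 in KO188) and Pdgfrb (12.34 and 12.49) were far above the receptor guide, whereas Lepr (5.18 and 5.12) was under it. Of 7 measured osteoblast markers 3 rose, Alpl (2.08), Omd (1.60) and Sp7 (0.36), and 1 fell, Phex (-0.16). That is a called share of 57.1%, beside 29.8% of all tested genes. The list mean was 6.82 to 6.85 on the WT arrays and 7.40 to 7.41 on the KO188 arrays, while the median change was 0.05. Phex (6.59 in WT and 6.43 in KO188) lay under the guide. Sp7 averaged 6.41 in WT, under the guide, and 6.77 in KO188, just above it. The Sp7 call ended when any WT array or KO188 replicate 3 was omitted (adjusted p = 0.052 to 0.070), and the Phex call when WT replicate 1 or 2, or KO188 replicate 1 or 3, was (0.10 to 0.13). Ibsp and Dmp1, markers of later osteoblasts and osteocytes, lay under the guide in both groups and did not pass, nor did Pth1r; Runx2, Bglap and Spp1 were not analysed here. Macrophages are a known source of IGF1: of 10 macrophage markers 0 passed limma's test (3 had an unadjusted p under 0.05). Of these markers 8 lay at or below the guide, Adgre1, Csf1r and Ptprc among them. Above it lay Cd68 (8.39 in WT and 8.54 in KO188) and Cd14 (7.85 and 7.58), which differed in direction. On the deposited values neither passed (limma adjusted p = 0.086 and 0.060), but Cd68 did in 2 of 14 alternatives and Cd14 in 4 of 13. Itgam, under the guide, passed as a fall in 2 of 13. The mean level of the list was 6.52 to 6.55 on the WT arrays and 6.46 to 6.56 on the KO188 arrays. Endothelial cells are rich in Igfbp3 and Igfbp7: 1 of 7 endothelial markers rose (Kdr, 0.24) and 0 fell, with 2 at an unadjusted p under 0.05. The called share of this list was 14.3%, beside 29.8% of all tested genes. Pecam1, Tek and Emcn lay under the guide. Tie1 and Cdh5 lay just above it and did not pass on the deposited values. Cdh5 passed as a fall in 2 of 13 alternatives (adjusted p = 0.0305 to 0.38 over the 13). Egfl7, at 8.16 in WT and 8.01 in KO188, did not pass on the deposited values (-0.15, adjusted p = 0.054) but did in 4 of 14 alternatives (adjusted p = 0.012 to 0.16 over the 14). The list mean was 6.62 to 6.63 in WT and 6.60 to 6.63 in KO188. Kdr itself lay under the guide, and its call ended when any WT array or KO188 replicate 1 was left out (adjusted p = 0.051 to 0.079).

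Of 6 smooth muscle and pericyte markers 3 fell, Mcam (-1.24), Cnn1 (-0.73) and Tagln (-0.42), a called share of 50% beside 29.8% of all tested genes. Acta2 (-0.04), Myh11 (-0.03) and Rgs5 (0.06) did not pass. The list mean was 10.23 to 10.24 in WT and 9.82 to 9.86 in KO188. Of 7 measured adipocyte markers 2 fell, Pparg (-1.86) and Fabp4 (-0.33), a called share of 28.6% beside 29.8% of all tested genes. The adipocyte list mean was 7.36 to 7.38 in WT and 7.04 to 7.17 in KO188, but its median change was -0.01: Adipoq (-0.01), Plin1 (-0.01), Cidec (0.00), Cebpa (0.07) and Lep (0.19) did not pass. Of these, Adipoq (5.37 in WT and 5.36 in KO188) and Lep (5.68 and 5.86) lay under the guide. Granulocyte and lymphocyte markers had 0 of 7 and 0 of 7 past limma's test, and 0 of each at an unadjusted p under 0.05. In each of these lists 4 markers lay at or below the guide. Among the lymphocyte markers, Cd79b passed as a fall in 3 of 13 alternatives, and Cd79a and Cd3g in 1 of 13 each. The part of these marker values in the changes of Igf1, Igfbp3, Igfbp6 and the other members was not tested.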

How the data were processed

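Messenger RNA of 6 samples was read on 1 Affymetrix array each. The authors' deposited table holds log2 values for 35556 probe sets; Affymetrix Expression Console, Partek and RMA stand in the submitters' processing notes, without versions or roles. RMA corrects background, equalises arrays and summarises probes, and it compresses changes of dim genes. Groups follow the sample titles. Of the probe sets, 21789 carry 1 gene symbol in GEO's platform annotation, and 21698 of these matched RefSeq (GRCm38.p6); for the 999 genes with several probe sets the one with the highest 6-array mean was used, with no filter on dim values. KO188 was compared with WT by limma's lmFit and eBayes (version 3.58.1, R 4.3.3; neither trend nor covariate), with Benjamini-Hochberg adjustment over all 19938 genes and a threshold of 0.05; the script was tested on simulated data. Intervals are 95% intervals of that fit. The number of arrays limits the precision, and no read depth applies. Members and lists were chosen with earlier results of these data known. Named genes are all members, up to 3 genes with the lowest p of each list among those called with no overlap between groups, all calls of lists with 5 or fewer, and the 3 profiles nearest to the largest rise and fall; the values of other named genes were seen first. Lists entered no set test. Scaling, a filter on dim genes, the probe set rule, the variance model, the replicate number and each array were varied. Plots used Python 3.11.15 and matplotlib 3.10.9.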

Additional observations from a re-analysis of the deposited data

How the results depend on the processing

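Over 14 alternatives, 136 of 138 values of the member genes kept their direction and their side of the threshold; the exceptions were Igfbp7, whose sign turned with median centring (-0.019), and Igfbp2, which passed with quantile normalization (-0.10). The count of called members was 6 of 10 throughout, except for 7 with quantile normalization and 5 of 8 with genes below the 50th percentile left out, which removes Igf2 and Igfbp2 from the test; that filter raised the called share of all genes to 62.4%. With 1 array left out, members called were 6 to 6, listed genes 38 to 43 and all genes 4835 to 5553. The replicate numbers did not pair the samples (correlations of deviations 0.018, 0.010 and -0.028); with the replicate block 6 members, 42 listed genes and 5019 of all genes passed, and the calls on Cbl (adjusted p = 0.089), Ptpn11 (0.080), Bmp1 (0.051) and Kdr (0.058) ended, while the macrophage marker Cd68 passed (0.041). No scaling moved the median of all genes by over 0.1 (-0.05 with median centring, -0.03 with quantile normalization). Small changes, such as those of Igf2r, Igfbp2, Igfbp4 and Igfbp7, are limited by the number of arrays, and dim genes by the compression of RMA values near background.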

Other observations

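Besides Airn, which overlaps Igf2r and rose by 0.36 as given above, Mir483 and Igf1os were read at the member loci, and neither passed. Mir483, the gene of a microRNA that lies within Igf2, was 8.47 ± 0.054 (SD, n = 3) in WT and 8.51 ± 0.17 in KO188 and did not pass limma's test (0.04, SE 0.082, adjusted p = 0.79), while Igf2 itself rose. Igf1os, annotated as antisense to Igf1, was 4.99 ± 0.19 in WT and 5.0 ± 0.038 in KO188, under the receptor guide of 6.72 in both groups (adjusted p = 0.98), while Igf1 rose.

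Identical deposited values recur on different arrays. Igfbp2 has the same value, 7.63543, on WT replicates 1 and 2 and KO188 replicate 1, and 7456 of the tested genes (37.4%) share a value between at least 2 arrays; among the 10 members only Igfbp2 does.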
